A study of Rattus norvegicus with 12 samples.

Results

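The comparison described here sets livers of rats on a high fat diet without any added compound (HFD) against livers of rats on a normal diet (Control), both from Sprague Dawley rats, an outbred laboratory strain. Its members are the 3 HFD libraries (replicates 2, 3 and 4) and the 3 Control libraries (replicates 1, 2 and 3), taken by their treatment labels, or 6 of the 12 libraries of the series. The other 6 come from rats given S-allylmercaptocysteine (SAMC), a sulfur compound of aged garlic, on the high fat diet (HFD+SAMC) or on the normal diet (Control+SAMC). The labels give no composition or duration of the diet and no dose, sex or age, and nothing says that the libraries of a group come from separate animals. The p-values therefore rest on a spread between libraries that could be technical. Counts of any pair from the same group differed far beyond counting noise (chi-square over its degrees of freedom, 134 to 645). The series concerns fatty liver disease, and this comparison asks what the diet alone changed.

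The liver makes cholesterol and fatty acids and oxidises fatty acids, and transcription factors set the balance. SREBP2, held in the endoplasmic reticulum while sterols are plentiful, drives genes of cholesterol synthesis and uptake, and SREBP1c drives fatty acid synthesis. PPARa, a receptor for fatty acids, drives their oxidation, and CAR, PXR and AhR are receptors that drive enzymes which clear drugs and other foreign compounds.

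Total counts were 51518564 to 55354691 in HFD libraries and 49466427 to 54257072 in Control libraries. Values per library are CPM, counts scaled to a library total of 1e+06 with TMM factors, which even out composition. A log2 fold change, HFD over Control, is given ± its standard error (SE), and a gene is called at an adjusted p under 0.05 (edgeR's quasi-likelihood test, two-sided, Benjamini-Hochberg over 15916 genes). Hepatocyte transcripts were abundant in every library, and albumin (Alb) took 8.84% to 11.4% of counts in HFD libraries and 8.06% to 21.8% in Control libraries. Control replicate 2 stood apart, with the highest albumin share and the lowest TMM factor (0.795, against 0.902 to 1.18 in the other 5). The TMM factors also separated the groups, at 1.04 to 1.18 in HFD libraries and 0.795 to 0.967 in Control libraries (exact permutation p = 0.1, the smallest possible). HFD replicate 3 had the lowest share of mitochondrially encoded counts, 1.73%, against 3.14% to 5.36% in the other libraries of the series. The fibrinogen chain Fga measured 3822, 3378 and 14057 CPM across HFD libraries 2, 3 and 4, and 18523, 3588 and 12949.5 CPM across Control libraries 1, 2 and 3, so that a low level occurred in 2 HFD libraries and in 1 Control library. The gene length behind the deposited RPKM of RGD1562465 was 4432 bp for HFD and Control+SAMC, and 3377 bp for Control and HFD+SAMC. For this gene the libraries thus fall into 2 sets, and any difference between the sets cannot be told apart from the diet within HFD against Control. HFD+SAMC against Control+SAMC shares no library with this comparison and has the sets the other way round, so its log2 fold changes are given for the called genes and the gene lists ("with SAMC"). In it, HFD+SAMC replicate 3 stood apart, with skeletal muscle markers summing to 967 CPM, against 0.232 to 1.5 CPM in the other 11 libraries. Without that library, 1 gene (Vnn1) was called with SAMC, against 10 with it, and all libraries enter the estimate of the spread, so that HFD against Control then gave 13 calls, 10 of them among the 23.

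In HFD livers 23 genes were called, 12 higher and 11 lower than in Control livers, or 0.145% of the genes tested (0.0754% higher and 0.0691% lower). Before adjustment 1697 genes had a p under 0.05, 10.7% of those tested (5.91% higher and 4.76% lower), where 795.8 are expected by chance. The 3 HFD libraries lay above all 3 Control libraries for 8.27% of genes and below all of them for 6.44%. Log2 fold changes were above 0 for 49.3% of genes and below 0 for 50.7%, and in HFD+SAMC against Control+SAMC 51.1% were above 0. The genes that rose included the drug-metabolising cytochromes P450 Cyp2b1 and Cyp2b2, the sulfotransferase Sult1c2 and the acyl-CoA acyltransferase Acnat2. Those that fell included the sterol-responsive gene Tmem97 and the membrane glycoprotein gene Prom1. The calls depended on single libraries. Without Control replicate 3, 4 genes were called, and these were Cyp2b1, Prom1, Tmem97 and LOC100911991, which were called whichever of the 6 libraries was left out. There were 6 calls without HFD replicate 3, 9 without HFD replicate 2, 14 without Control replicate 2, 25 without HFD replicate 4 and 53 without Control replicate 1. Of the 23, 7 remained called without HFD replicate 2, 6 without HFD replicate 3, 11 without HFD replicate 4, 21 without Control replicate 1, 12 without Control replicate 2 and 4 without Control replicate 3, so that each of the other 19 lost its call without at least 1 library. An edgeR fit on the 6 HFD and Control libraries alone called 4 genes, 3 of them among the 23 (Acnat2, Sult1c2 and LOC100911991). In that fit Cyp2b1, Tmem97 and Prom1 were not called (adjusted p = 0.0566, 0.0566 and 0.073). DESeq2 called 315, all 23 among them.

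**Figure D1:**
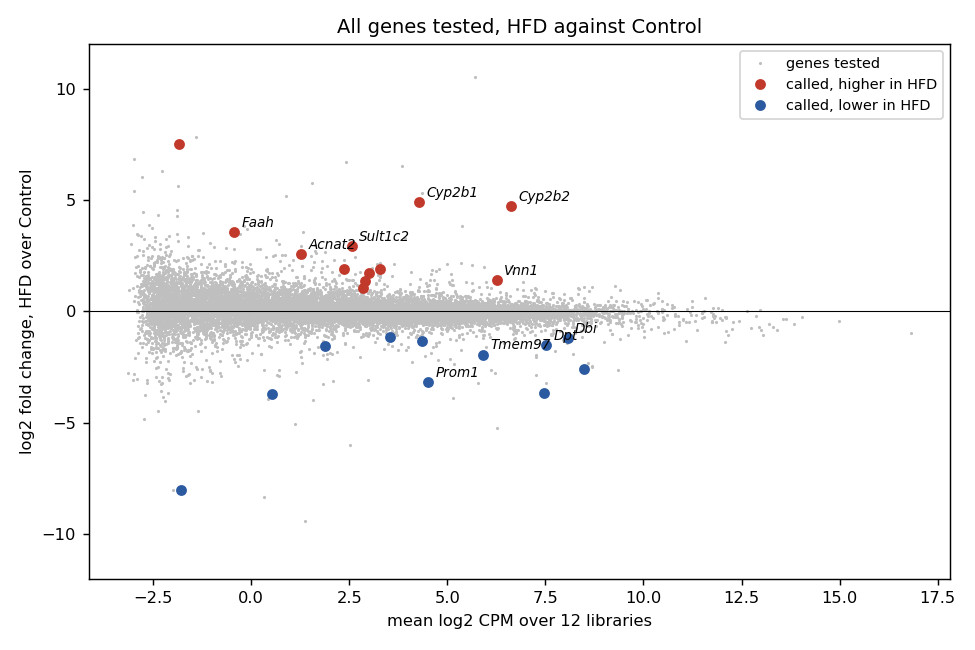
Each point is 1 of the 15916 genes tested, by its mean log2 CPM over 12 libraries (x axis) and its log2 fold change, HFD over Control (y axis); red points are the 12 genes called higher and blue points the 11 called lower. Cyp2b1 and Cyp2b2 lie at 4.91 and 4.72 and Tmem97 and Prom1 at −1.94 and −3.17, while some genes that were not called lie farther from 0.

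Among called genes with counts in both groups, the largest increases were in the phenobarbital-inducible P450 pair. Cyp2b1, which oxidises drugs and steroids, measured 7.66, 25.9 and 12.3 CPM in HFD replicates 2, 3 and 4, against 0.381, 0.636 and 0.516 CPM in Control replicates 1, 2 and 3. Cyp2b2, its close relative, was at 42.1, 161 and 58.3 CPM in HFD libraries and at 3.39, 2.79 and 3.75 CPM in Control libraries. The groups did not overlap for either gene, and HFD replicate 3 was highest for both. Cyp2b1 rose by 4.91 ± 0.48 on the log2 scale (adjusted p = 0.00402) and Cyp2b2 by 4.72 ± 0.49 (adjusted p = 0.00419). In HFD+SAMC against Control+SAMC they stood at 3.38 ± 0.42 and 2.65 ± 0.44. The copies are alike enough that reads may be split or lost between them in counting, and the deposited table places Cyp2b1 on chromosome 7 and Cyp2b2 on chromosome 1, without naming a build. Their likeness shows in the RefSeq promoters of the GRCr8 build, both on chromosome 1, which were identical at 275 of 283 bases (97.2%) with no gaps. The stretch of 150 bases up to the start of Cyp2b1 and its counterpart in Cyp2b2 are shown, 5′ to 3′, with the bases that differ in capitals.
Cyp2b1 (chr1:90645969-90646118, plus strand): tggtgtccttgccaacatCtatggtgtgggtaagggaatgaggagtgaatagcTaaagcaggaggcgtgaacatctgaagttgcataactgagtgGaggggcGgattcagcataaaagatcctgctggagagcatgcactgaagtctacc
Cyp2b2 (chr1:90722114-90722263, plus strand): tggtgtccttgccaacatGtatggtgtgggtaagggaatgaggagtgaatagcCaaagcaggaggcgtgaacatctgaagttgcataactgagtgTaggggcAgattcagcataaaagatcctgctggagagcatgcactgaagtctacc

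Of 26 P450 and reductase genes of drug metabolism tested, 2 were called higher and 0 lower, 8 (against 8.27% of all genes) had HFD libraries above all Control libraries and 2 (against 6.44%, a similar share) had them below, and the median log2 fold change was 0.11 (0.26 without Control replicate 2), against −0.0047 over all genes tested, and 0.15 with SAMC. Cyp3a62, a rat enzyme of the CYP3A family, was at 4.26, 7.49 and 4.04 CPM in HFD libraries and 0.667, 0.441 and 0.897 CPM in Control libraries (2.97 ± 0.56, adjusted p = 0.0765). Cyp3a18, of the same family, was at 21, 21.3 and 13.6 CPM in HFD libraries and 5.49, 4.21 and 3.21 CPM in Control libraries (2.11 ± 0.40, adjusted p = 0.083). Both missed the threshold, and neither gene's groups overlapped. In HFD+SAMC against Control+SAMC, Cyp3a62 stood at 1.83 ± 0.53 and Cyp3a18 at 1.61 ± 0.40. Cyp2e1, which oxidises ethanol and fatty acids, was at 2981 to 4020.3 CPM in HFD libraries and 2094 to 2583 CPM in Control libraries (0.61 ± 0.20, adjusted p = 0.31), and Cyp2d2 stood at 0.53 ± 0.19.

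Other genes of the CAR and PXR programme lay on the same side. All 16 tested had a log2 fold change above 0, with a median of 0.58 (0.36 without HFD replicate 3), 6 of them did not overlap (8.27% of all genes were higher without overlap) and none (0) was called. Nr1i3, which encodes CAR itself, was at 20.4, 23.1 and 10.4 CPM in HFD libraries and 2.84, 4.97 and 4.73 CPM in Control libraries (2.11 ± 0.49, adjusted p = 0.163). The conjugate exporter gene Abcc3 was at 12.2, 16.2 and 12.4 CPM in HFD libraries and 4.14, 5.24 and 3.34 CPM in Control libraries (1.68 ± 0.38). The glucuronosyltransferase gene Ugt2b1 (0.99 ± 0.31), the epoxide hydrolase gene Ephx1 (0.97 ± 0.40) and the retinal dehydrogenase gene Aldh1a1 (0.81 ± 0.25) were also without overlap. In HFD+SAMC against Control+SAMC the list's median was −0.026, with 7 of 16 above 0, while Nr1i3 stood at 1.99 ± 0.48. Among 11 sulfotransferase and sulfate activation genes 1 was called, and the median was 0.32, but −0.40 with SAMC. Sult1c2, which adds sulfate to phenols, rose to 16.9, 17.6 and 10.6 CPM in HFD libraries, against 2.61, 1.37 and 1.97 CPM in Control libraries (2.91 ± 0.42, adjusted p = 0.0259), and stood at 1.10 ± 0.40 with SAMC. The 23 glutathione S-transferase and Nrf2 target genes had a median of 0.10 (0.26 without Control replicate 2) with 0 called. With SAMC it was −0.62, with 20 of 23 below 0, and averaged over SAMC it was −0.24, so that the list has no stable direction. In it the aldehyde reductase gene Akr7a3 was at 32.9, 44 and 38.2 CPM in HFD libraries and 22, 20.5 and 17.3 CPM in Control libraries (0.94 ± 0.29, adjusted p = 0.262). With SAMC that gene stood at −1.06 ± 0.29, and the interaction did not pass (adjusted p = 0.115).

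Genes that handle fatty acids bound to coenzyme A went both ways. Acnat2, which joins fatty acids to amino acids in peroxisomes (a role known from its mouse relatives), rose to 4.78, 7.02 and 6.85 CPM in HFD libraries, against 1.05, 0.979 and 1.1 CPM in Control libraries. The 3 values of each group lay close together and the groups were well apart (2.57 ± 0.30, adjusted p = 0.00478, with SAMC 1.18 ± 0.30). Vnn1, which makes pantothenate and cysteamine by splitting pantetheine and is a known PPARa target, rose to 102, 108 and 93.4 CPM in HFD libraries, against 49.4, 35.8 and 30.2 CPM in Control libraries (1.39 ± 0.23, adjusted p = 0.0467). It was among the 10 genes called in HFD+SAMC against Control+SAMC (0.0628% of genes), at 2.11 ± 0.23 (adjusted p = 0.00951). Dbi, the acyl-CoA-binding protein, fell to 161, 189 and 141 CPM in HFD libraries, against 287, 499 and 339.6 CPM in Control libraries (−1.20 ± 0.20, adjusted p = 0.0467), and stood at −0.30 ± 0.19 with SAMC. Ddhd1 is a phospholipase that acts on phosphatidic acid and is not one of the coenzyme A genes. It fell to 11.6, 17.4 and 17.6 CPM in HFD libraries, against 36.4, 43.7 and 36.1 CPM in Control libraries (−1.32 ± 0.21, adjusted p = 0.0383). Its groups did not overlap, and it stood at −1.02 ± 0.21 with SAMC. Over the 24 genes of coenzyme A and acyl-CoA handling, 2 were called higher and 1 lower, with a median of 0.16 (0.063 to 0.27 when 1 library was left out) and 0.04 with SAMC. The thioesterase gene Acot1 ranged from 14.4 to 151 CPM in HFD libraries and from 1.74 to 13.2 CPM in Control libraries, without overlap but with the lowest HFD library next to the highest Control library (3.84 ± 1.06, adjusted p = 0.245).

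Fatty acid oxidation and ketogenesis showed small differences, with 19 of 22 genes above 0 and a median of 0.23 (0.13 without Control replicate 2). None (0) was called, 5 had HFD libraries above all Control libraries (8.27% of all genes did), and the median with SAMC was 0.28. Ehhadh, the bifunctional enzyme of peroxisomal oxidation, was at 318, 442 and 457 CPM in HFD libraries and 154, 223 and 190.1 CPM in Control libraries (1.10 ± 0.27, adjusted p = 0.176). The rate-setting carnitine palmitoyltransferase Cpt1a stood at −0.25 ± 0.51. Of 21 PPARa targets, 11 lay above 0, 1 was called (Vnn1) and the median was 0.11 (0.42 without Control replicate 1, 0.24 without HFD replicate 2, 0.20 without HFD replicate 3 and 0.13 with SAMC). Cidea, a lipid droplet protein, was at 18.1, 15.8 and 13.1 CPM in HFD libraries and 9.72, 4.6 and 5.97 CPM in Control libraries (1.21 ± 0.26, adjusted p = 0.108), and with SAMC it stood at 1.68 ± 0.26 (adjusted p = 0.0442, not called without HFD+SAMC replicate 3). The fatty acid omega-hydroxylases Cyp4a2 and Cyp4a3 stood at −1.11 ± 0.29 and −1.07 ± 0.27, with every HFD library below every Control library. Of 17 lipid droplet and lipase genes 7 lay above 0, and the droplet coat gene Plin2 was at 573, 605 and 1049 CPM in HFD libraries and 1510.3, 349 and 1446 CPM in Control libraries, with wide overlap.

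Genes of sterol metabolism lay lower in HFD livers, few of them past the threshold. Tmem97, a sterol-responsive membrane protein that lowers NPC1 in human cells, fell to 19.8, 15.8 and 17.8 CPM in HFD libraries, against 50.004, 91.2 and 64.7 CPM in Control libraries (−1.94 ± 0.20, adjusted p = 0.00402). The groups did not overlap, and Control replicate 2 was the highest of the 6 HFD and Control libraries. The gene remained called without any 1 of these 6, but not in the edgeR fit on the 6 alone (adjusted p = 0.0566). In HFD+SAMC against Control+SAMC it stood at −1.02 ± 0.19.

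All 20 enzymes of cholesterol synthesis tested were below 0, with a range of −2.84 to −0.73 and a median of −2.08, and for 15 of them every HFD library lay below every Control library, against 6.44% of all genes. Of the 20, 1 was called. The median was −1.02 without Control replicate 2. Relative to each gene's mean over the 6 libraries, the median level of the list was −1.30 to −0.38 (log2) in HFD libraries and −0.14 to 2.19 in Control libraries, where Control replicate 2 was at 2.19. The lanosterol demethylase gene Cyp51 was at 83.2, 117 and 65.6 CPM in HFD libraries and 212, 859 and 439 CPM in Control libraries (−2.50 ± 0.42, adjusted p = 0.0563). The farnesyl diphosphate synthase gene Fdps was at 96.2, 126 and 65.2 CPM in HFD libraries and 219, 897 and 329 CPM in Control libraries (−2.33 ± 0.45). The squalene epoxidase gene Sqle was at 11.9, 15.4 and 6.72 CPM in HFD libraries and 24.6, 148 and 40.3 CPM in Control libraries (−2.64 ± 0.60), the reductase gene Tm7sf2 stood at −1.94 ± 0.34 and the phosphomevalonate kinase gene Pmvk at −1.74 ± 0.40. In HFD+SAMC against Control+SAMC all 20 were again below 0, with a median of −1.53, and Tm7sf2 was near 0 at −0.027 ± 0.32. Of 9 genes of SREBP2 control and sterol uptake 2 were called lower (Tmem97 among them), 7 lay below 0 and the median was −1.30 (−0.53 without Control replicate 2 and −1.02 with SAMC). Insig1, which retains SREBP in the endoplasmic reticulum and is itself a target, was at 29.9, 26 and 20.5 CPM in HFD libraries and 81.4, 536 and 93.9 CPM in Control libraries (−3.22 ± 0.65, adjusted p = 0.108). Srebf2, which encodes SREBP2, stood at −1.06 ± 0.25, its escort gene Scap at −0.50 ± 0.16 and Mylip, a ligase that degrades the LDL receptor, at 0.52 ± 0.21.

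Because these genes lay to 1 side together, their promoters were read for the CCAAT box, to which NF-Y binds beside SREBP in many sterol genes. RefSeq promoters (GRCr8) were matched by Entrez number for 15 of the 20 cholesterol synthesis genes and for 11633 of the 15916 genes tested. In the 250 bases before the start, CCAAT on either strand occurred in 12 of 15 (80.0%), against 35.6% of the genes tested. The high share was not particular to this list. CCAAT was in 6 of 7 promoters of SREBP2 control and sterol uptake genes (85.7%), 9 of 13 of lipogenesis genes (69.2%) and 7 of 12 of called genes (58.3%). The letters TCACNCCAC, which match the sterol element of the LDL receptor promoter, were in 0 of the 15 cholesterol synthesis promoters on either strand and in 1.0% of the genes tested. They were in 0 of 7 promoters of SREBP2 control and sterol uptake genes, 0 of 13 of lipogenesis genes and 1 of 12 of called genes (8.3%). At a share of 1.0%, 0 of 15 does not set the list apart. A match is a description of these letters only. The promoters of Tmem97 and of 4 pathway members (the synthase Hmgcs1, Fdps, the isomerase Idi1 and the cyclase Lss) are shown up to the base before the start, 5′ to 3′, with CCAAT or its reverse complement ATTGG in capitals.
Tmem97 (chr10:63945360-63945579, minus strand): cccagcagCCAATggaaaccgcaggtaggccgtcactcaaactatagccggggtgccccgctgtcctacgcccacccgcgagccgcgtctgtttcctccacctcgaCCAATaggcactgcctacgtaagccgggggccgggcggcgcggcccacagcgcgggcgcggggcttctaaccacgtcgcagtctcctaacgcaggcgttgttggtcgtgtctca
Hmgcs1 (chr2:53382104-53382303, plus strand): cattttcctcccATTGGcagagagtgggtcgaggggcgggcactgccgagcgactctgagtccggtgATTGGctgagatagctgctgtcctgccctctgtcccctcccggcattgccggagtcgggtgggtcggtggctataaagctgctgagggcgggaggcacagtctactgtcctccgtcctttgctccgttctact
Fdps (chr2:176804817-176804966, minus strand): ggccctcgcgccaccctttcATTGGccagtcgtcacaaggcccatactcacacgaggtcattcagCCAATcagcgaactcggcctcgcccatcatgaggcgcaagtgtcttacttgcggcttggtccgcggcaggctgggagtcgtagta
Idi1 (chr17:66547525-66547674, minus strand): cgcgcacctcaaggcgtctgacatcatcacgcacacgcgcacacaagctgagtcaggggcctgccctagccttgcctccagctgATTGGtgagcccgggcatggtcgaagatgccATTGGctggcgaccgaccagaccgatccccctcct
Lss (chr20:12118231-12118380, minus strand): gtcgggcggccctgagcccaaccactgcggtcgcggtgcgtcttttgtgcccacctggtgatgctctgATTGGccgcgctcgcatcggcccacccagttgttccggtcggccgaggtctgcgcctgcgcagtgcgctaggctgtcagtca

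**Figure D2:**
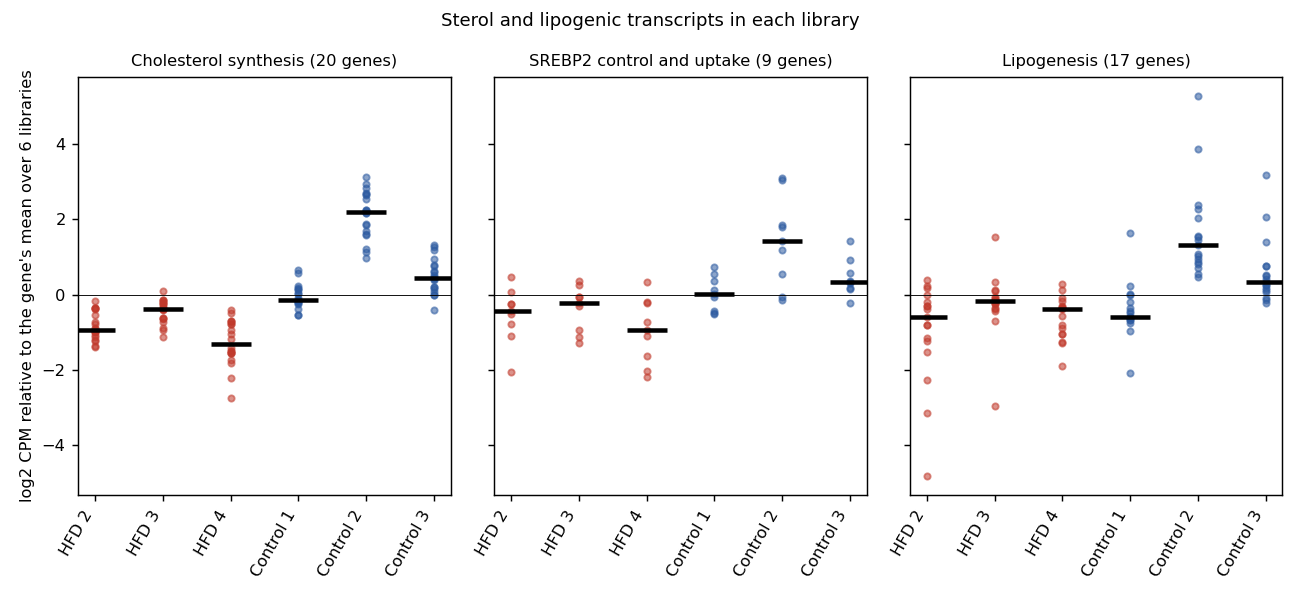
Each point is 1 gene (mean log2 CPM of at least 1) in 1 library, as log2 CPM relative to that gene's mean over the 6 libraries (y axis), for the 3 HFD libraries (red) and 3 Control libraries (blue) along the x axis; black bars are medians over the genes of a list. Control replicate 2 is highest in all 3 lists. The lipogenesis levels in the text use log2 CPM with a prior count and all members tested. In those, Control replicate 1 (−0.59) and HFD replicate 2 (−0.58) were nearly equal.

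Lipogenesis, the making of fatty acids from citrate, had 0 of 17 genes called, 16 below 0 and a median of −1.02 (−0.42 without Control replicate 2 and −1.03 with SAMC), and for 3 genes HFD libraries lay below all Control libraries, against 6.44% of all genes. The list's median level was −0.58 to −0.17 (log2) in HFD libraries and −0.59 to 1.32 in Control libraries, so that the groups overlapped. Scd, the desaturase that makes oleate, was at 0.665, 2.4 and 10.1 CPM in HFD libraries and 58.1, 268 and 168 CPM in Control libraries (−5.23 ± 1.11, adjusted p = 0.153). With SAMC it stood at −6.81 ± 1.20. The fatty acid synthase gene Fasn was at 70.7, 156 and 84 CPM in HFD libraries and 135, 1052 and 529 CPM in Control libraries (−2.46 ± 0.61), where HFD replicate 3 lay above Control replicate 1. The citrate carrier gene Slc25a1 was at 68, 78.9 and 78.2 CPM in HFD libraries and 119, 185 and 121 CPM in Control libraries (−0.92 ± 0.17, adjusted p = 0.0765), and the lipogenic regulator gene Thrsp stood at −0.85 ± 0.28. Srebf1, the gene of SREBP1c, was at 69, 114 and 43.6 CPM in HFD libraries and 46.8, 369 and 94.9 CPM in Control libraries, with overlap. Of 11 desaturase and elongase genes 9 lay below 0 with 0 called and a median of −0.50 (−0.26 without Control replicate 2 and −0.27 with SAMC). Fads1 and Fads2, which make polyunsaturated fatty acids, were below every Control library in every HFD library, at −1.89 ± 0.43 and −1.01 ± 0.37.

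Prom1, a cholesterol-binding membrane glycoprotein found on bile duct and progenitor cells, fell to 6.5, 3.1 and 6.75 CPM in HFD libraries, against 34.2, 64.9 and 47.9 CPM in Control libraries (−3.17 ± 0.34, adjusted p = 0.00419). With SAMC it stood at −1.53 ± 0.32. Of 8 cholangiocyte markers tested it alone was called, 5 lay below 0 and the keratin genes Krt7 and Krt19 stood at 0.36 ± 0.78 and 0.33 ± 0.32. The summed level of the list was 16 to 18.3 CPM in HFD libraries and 53.7 to 74.9 CPM in Control libraries, most of it Prom1 in the Control libraries. In bulk tissue, fewer cells of a type and less RNA per cell cannot be told apart. Dpt, a matrix protein of connective tissue, fell to 101, 65.1 and 120.3 CPM in HFD libraries, against 199, 312 and 306 CPM in Control libraries (−1.51 ± 0.25, adjusted p = 0.0467, with SAMC −0.94 ± 0.25). Of the 21 matrix and fibrosis genes it was 1 of 2 with no overlap downward (against 6.44% of all genes, a similar share), 7 had no overlap upward (against 8.27%) and the median was 0.13 (0.35 without Control replicate 1, 0.29 without Control replicate 3, 0.21 without HFD replicate 2, −0.02 with SAMC). The collagen gene Col3a1 was at 112, 228 and 136 CPM in HFD libraries and 92.3, 91.4 and 110.4 CPM in Control libraries (0.69 ± 0.27), and the basement membrane genes Col4a1 and Col4a2 stood at 0.53 ± 0.19 and 0.47 ± 0.18. Elastin (Eln) stood at 1.31 ± 0.40. The 9 stellate cell markers had a median of 0.027 and 0 calls. Zdhhc14, a palmitoyltransferase, fell to 6.48, 7.88 and 6.32 CPM in HFD libraries, against 13, 19 and 14.1 CPM in Control libraries (−1.15 ± 0.16, adjusted p = 0.0259, with SAMC −0.71 ± 0.16). LOC689065, a hypothetical protein gene, fell to 0.222, 0.2 and 0.281 CPM in HFD libraries, against 4.63, 2.72 and 1.91 CPM in Control libraries, and the noncoding RNA gene LOC103693474 rose to 8.9, 13.2 and 13.5 CPM in HFD libraries, against 4.4, 1.71 and 3.32 CPM in Control libraries (adjusted p = 0.0383 for each). With SAMC they stood at −0.10 ± 0.51 and 1.52 ± 0.31.

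**Figure D3:**
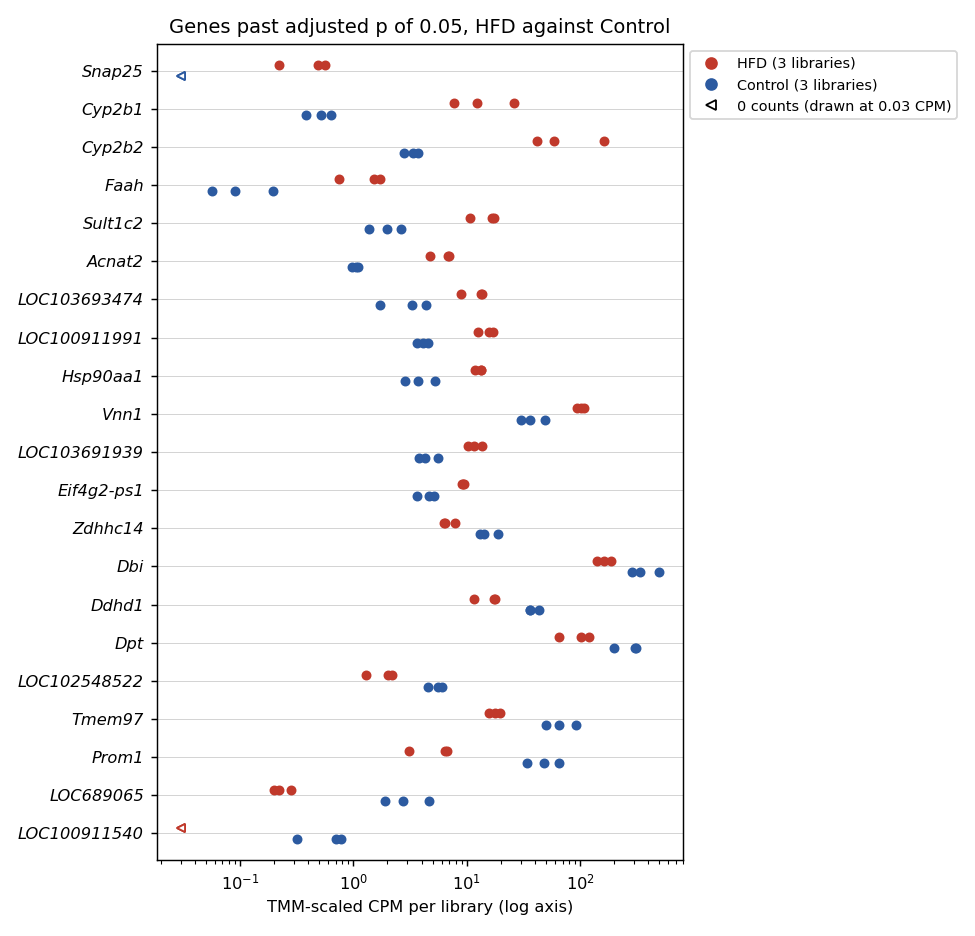
CPM of 21 of the called genes in each of the 3 HFD libraries (red) and 3 Control libraries (blue) on a log x axis, ordered from the highest to the lowest log2 fold change; open triangles are 0 counts, drawn at 0.03 CPM. No gene drawn has overlapping groups, and the triangles show that Snap25 had no counts in Control libraries and LOC100911540 none in HFD libraries.

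The diet effect of 8 of the 23 called genes differed between libraries without and with SAMC, by the interaction of diet and SAMC (23 of the genes tested passed, 0.145%), and each of the 8 lay in the opposite direction with SAMC. They are LOC100911991, LOC103691939, Hsp90aa1, Eif4g2-ps1, Faah, Snap25, LOC100911540 and LOC102548522. Since the interaction runs along the library sets, a set difference and a SAMC-dependent diet effect cannot be told apart for them. LOC100911991, named as like elongation factor 1-alpha, was at 12.7, 17 and 15.7 CPM in HFD libraries and 3.62, 4.14 and 4.55 CPM in Control libraries (1.88 ± 0.20, adjusted p = 0.00402), and it stood at −1.79 ± 0.20 with SAMC. LOC103691939, also annotated as an elongation factor 1 alpha gene, stood at 1.37 ± 0.18 without and −1.08 ± 0.18 with SAMC. The chaperone gene Hsp90aa1 was at 11.8, 13.4 and 13.2 CPM in HFD libraries and 5.2, 3.7 and 2.85 CPM in Control libraries, at 1.71 ± 0.25 without and −0.76 ± 0.24 with SAMC. Faah, which breaks down endocannabinoid amides, was at 1.53, 1.73 and 0.748 CPM in HFD libraries and 0.0572, 0.196 and 0.0897 CPM in Control libraries, at 3.56 ± 0.56 without and −0.84 ± 0.48 with SAMC. The synaptic gene Snap25 had 12 to 32 counts in HFD libraries and 0 in Control libraries, at least 6.44-fold higher in HFD against a floor of 3 counts per library. LOC100911540, a pseudogene, had 0 counts in HFD libraries and 13 to 37 in Control libraries, at least 11.5-fold lower in HFD against the same floor. Without HFD+SAMC replicate 3 the interaction passed for 6 of the 8, and not for Hsp90aa1 and Faah. Over all 23 called genes, 15 lay on the same side of 0 with SAMC, with or without that library. These are the genes with no interaction past the threshold in the fit of all libraries. The interaction is the difference of the diet effects, so sorting by it favours this split into 15 and 8. The split is therefore no separate support. The count of 15 does not show that the size was alike. LOC689065 was near 0 with SAMC and its interaction was −3.61 ± 0.76 (adjusted p = 0.123), and Dbi was within 2 SE of 0 with SAMC. Reads of pseudogenes and near-identical copies such as these may be split or lost in counting.

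**Figure D4:**
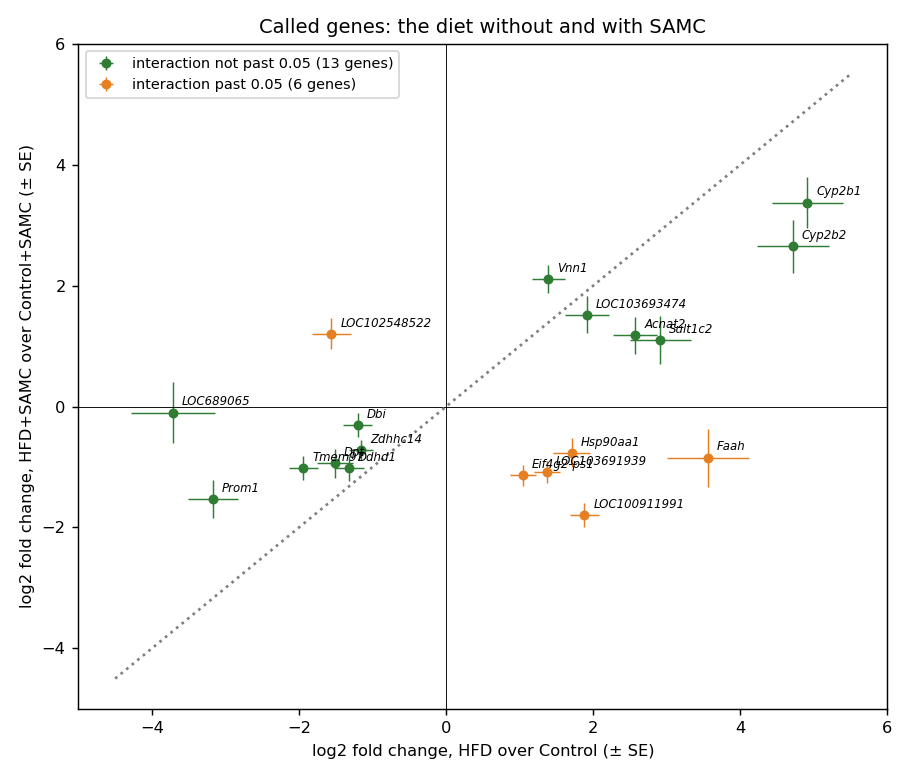
Log2 fold changes ± SE of 19 of the called genes for HFD over Control (x axis) and HFD+SAMC over Control+SAMC (y axis), which share no library; the dotted line marks equal values, and genes at 0 in 1 group, such as Snap25, are left out. The 13 green genes lie in the quadrants of equal direction and the 6 orange genes, with an interaction past 0.05, in the opposite ones. The interaction is the difference of the plotted values, so colour and quadrant are not independent.

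Of the genes next in order of p, none of which passed, Slc25a43 and Slc25a34, carriers of the mitochondrial family, stood at 1.88 ± 0.33 and 1.77 ± 0.34. Csrp1, a LIM domain protein, was at 49.9, 57.1 and 45.9 CPM in HFD libraries and 29.7, 34.6 and 30.9 CPM in Control libraries (0.68 ± 0.13). Inpp5d, the phosphatase SHIP1 of blood cells, was at 10.9, 12.7 and 10.3 CPM in HFD libraries and 4.94, 6.34 and 6.82 CPM in Control libraries (0.90 ± 0.17). Rhbg, an ammonium transporter of the cells around the central vein, was at 9.51, 6.02 and 5.89 CPM in HFD libraries and 2, 1.81 and 1.82 CPM in Control libraries (1.93 ± 0.36, adjusted p = 0.0746). Axin2, a Wnt target of the same zone, went the other way, at 12.8, 13.8 and 14 CPM in HFD libraries and 22.9, 20.8 and 20.3 CPM in Control libraries (−0.65 ± 0.12, adjusted p = 0.0683). Of the 9 pericentral markers 3 lay above 0, with a median of −0.18 (−0.55 without HFD replicate 4 and 0.04 without Control replicate 2), and of the 8 periportal markers 4 did. The retinol and androgen dehydrogenase gene Hsd17b6 was at 139.5, 109 and 213 CPM in HFD libraries and 332, 344 and 459 CPM in Control libraries (−1.30 ± 0.26). The haem exporter gene Flvcr1 stood at −1.16 ± 0.22, the GTPase regulator gene Depdc5 at −0.90 ± 0.17, Gramd4 at −0.99 ± 0.18 and Paqr4 at −1.07 ± 0.21. The ribonucleoprotein gene Hnrnpab (1.29 ± 0.23) and the signal recognition particle RNA Rn7sl1 (−1.88 ± 0.32) had an interaction past the threshold, and stood at −1.29 ± 0.23 and 1.37 ± 0.32 with SAMC. The pseudogene Zfp780b-ps1 and the unnamed gene ENSRNOG00000054742.1 stood at 1.24 ± 0.24 and 2.31 ± 0.45.

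Among immune genes, those of MHC class II, which present antigen on macrophages, dendritic cells and B cells, had the highest median of the 28 gene lists, at 1.08. None (0) was called, and for 7 of 8 every HFD library lay above every Control library, against 8.27% of all genes. RT1-Da was at 136, 111 and 105 CPM in HFD libraries and 34.3, 60.4 and 70.1 CPM in Control libraries (1.09 ± 0.30, adjusted p = 0.223). The invariant chain gene Cd74 was at 366, 288 and 327 CPM in HFD libraries and 121, 213 and 228 CPM in Control libraries (0.80 ± 0.31). Ciita, the master regulator of the class, was at 8.14, 6.06 and 8.42 CPM in HFD libraries and 2.21, 4.28 and 3.93 CPM in Control libraries (1.12 ± 0.34). RT1-Bb stood at 1.76 ± 0.44, RT1-Db1 at 0.93 ± 0.31 and RT1-Ba at 1.07 ± 0.44. RT1-DMa was the exception, at −1.11 ± 0.76. With SAMC the median was 0.41 and RT1-Bb stood at −0.76 ± 0.43. The summed level of 15 Kupffer cell and macrophage markers was 1072 to 1324 CPM in HFD libraries and 649 to 1079.7 CPM in Control libraries (exact permutation p = 0.2, two-sided, where 0.1 is the smallest possible). None of these markers was at 0 in all 6 HFD and Control libraries at once. The summed level of 7 B and plasma cell markers was 12.8 to 19.1 CPM in HFD libraries and 13.3 to 19.9 CPM in Control libraries. The part of these cells in the MHC class II values was not tested.

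Of the 15 macrophage markers 14 lay above 0 with 0 called and a median of 0.47 (0.31 without Control replicate 1 and 0.30 with SAMC). Lyz2, the lysozyme of macrophages, was at 75.2, 64.6 and 69.8 CPM in HFD libraries and 32.8, 28.1 and 25.4 CPM in Control libraries (1.28 ± 0.39), and Aif1 was at 17.6, 22.6 and 11.5 CPM in HFD libraries and 4.19, 9.86 and 7.83 CPM in Control libraries (1.24 ± 0.31). Tyrobp stood at 0.63 ± 0.17 and the complement genes C1qa, C1qb and C1qc at 0.47 ± 0.15, 0.32 ± 0.15 and 0.33 ± 0.16. Of 20 inflammasome and IL-1 genes 15 lay above 0, 8 without overlap (8.27% of all genes were higher without overlap), 0 were called and the median was 0.57, but 0.092 with SAMC. Il1b, the cytokine that inflammasomes mature, was at 10.04, 10.3 and 8.18 CPM in HFD libraries and 4.15, 5.09 and 5.45 CPM in Control libraries (0.96 ± 0.28, adjusted p = 0.25). Nlrp3 was at 7.11, 8.26 and 3.67 CPM in HFD libraries and 3.91, 3.28 and 3.23 CPM in Control libraries (0.87 ± 0.27), where HFD replicate 4 lay within the Control range. Nlrp12 and the channel gene Panx1 stood at 0.90 ± 0.22 and 0.86 ± 0.22, and caspase 1 (Casp1) at 0.55 ± 0.21. Of 17 NF-kB genes 15 lay above 0 with a median of 0.27 (0.17 without Control replicate 3 and 0.16 with SAMC) and 0 called. The adhesion gene Vcam1, the feedback inhibitor gene Tnfaip3 and Nfkbiz stood at 0.88 ± 0.27, 0.85 ± 0.30 and 0.54 ± 0.25, without overlap. The regulators Nfkb1 (0.10 ± 0.12), Rela (−0.23 ± 0.15), Nfkbia (0.22 ± 0.25), Ahr (−0.60 ± 0.46) and Nfe2l2 (0.073 ± 0.16) had overlapping groups, and Nlrp6 had too few counts to be tested. Of 10 AhR and Nrf2 regulators and readouts 0 were called, and Tiparp, an AhR target, stood at −0.43 ± 0.13. T and NK cell markers had a median of 0.45 over 11 genes (0.23 without HFD replicate 2), B and plasma cell markers −0.33 over 7 (−1.06 without HFD replicate 4, −0.19 without HFD replicate 2, but 0.62 with SAMC and 0.27 averaged over SAMC) and neutrophil markers −1.24 over 5 (−0.20 without Control replicate 1 and 0.057 with SAMC), with 0 called in each.

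Apolipoprotein and acute phase genes mostly had lower values in HFD livers without SAMC, and none (0) was called. Of 16 apolipoprotein and lipoprotein assembly genes 12 lay below 0, 6 without overlap (6.44% of all genes were lower without overlap), and the median was −0.48, but −0.065 with SAMC and −0.27 averaged over SAMC. Apoa4 was at 359, 403 and 256 CPM in HFD libraries and 788, 877 and 1014 CPM in Control libraries (−1.40 ± 0.30, adjusted p = 0.108), and with SAMC it stood at −2.57 ± 0.31 (adjusted p = 0.0118, not called without HFD+SAMC replicate 3). Apoa1, the main protein of HDL, was at 1337, 788 and 1574 CPM in HFD libraries and 2688, 2515 and 2039.7 CPM in Control libraries (−0.97 ± 0.30), but stood at 0.07 ± 0.30 with SAMC. Apoa2, Apom and Apoc4 stood at −0.77 ± 0.19, −0.60 ± 0.18 and −0.77 ± 0.24, and the hepatic lipase gene Lipc at 0.38 ± 0.11. Of 20 acute phase genes 16 lay below 0, 5 without overlap (against the same 6.44%), with a median of −0.59 (−0.25 without Control replicate 1 and −0.40 without HFD replicate 3) and 0 called. The median was −0.075 with SAMC and −0.37 averaged over SAMC. The list's median level (log2) was −0.30, −0.56 and 0.21 in HFD replicates 2, 3 and 4. In Control replicates 1, 2 and 3 it was 0.42, −0.29 and 0.33, so that the groups overlapped. The libraries with levels below 0 were those with low Fga, and the part of that difference in these values was not tested. Crp was at 2631 to 3576 CPM in HFD libraries and 4961 to 6950.4 CPM in Control libraries (−0.89 ± 0.20, adjusted p = 0.144), and Itih4 stood at −0.76 ± 0.23. Ceruloplasmin (Cp) stood at −0.48 ± 0.19, Itih3 at −0.27 ± 0.17 and the protease inhibitor gene Serpina1 at −0.83 ± 0.24. Fga, the marker of the low fibrinogen libraries, stood at −0.72 ± 0.73, with overlap. Of 12 hepatocyte markers 11 lay below 0, with a median of −0.32 and 0 called; their summed level was 132108 to 175514 CPM in HFD libraries and 154087 to 370032 CPM in Control libraries, where it is mostly albumin. The part of the albumin share in these values was not tested. The summed level of the 9 erythroid markers in the table was 356 to 494 CPM in HFD libraries and 556 to 889 CPM in Control libraries, without overlap (exact permutation p = 0.1, the smallest possible). The 5 haemoglobin genes tested stood at −0.93 to −0.67, and all 8 erythroid markers tested lay below 0 with 0 called. For 11 sinusoidal endothelial markers the median was −0.15 and 0 were called, and the VEGF receptor gene Kdr stood at −0.53 ± 0.16. For 3 of the 11 every HFD library lay below every Control library, against 6.44% of all genes. The summed level of these markers was 533 to 556 CPM in HFD libraries and 563 to 693 CPM in Control libraries, also without overlap (exact permutation p = 0.1, the smallest possible).

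The remaining lists held no called gene, apart from Hsp90aa1 among the 13 heat shock proteins. Their medians, with the range when 1 library was left out where it moved most, were 0.26 (range 0.19 to 0.44) for heat shock proteins, 0.55 for 17 cell cycle genes (0.31 without HFD replicate 3, 0.27 without Control replicate 1, 0.87 without Control replicate 2), 0.29 for 18 clock genes (0.03 without HFD replicate 3, 0.66 without Control replicate 2), 0.038 (range −0.041 to 0.19) for 16 ER stress genes, 0.12 (range 0.053 to 0.39) for 17 bile acid genes, −0.10 (range −0.24 to −0.025) for 20 glucose and insulin genes, −0.32 (range −0.38 to −0.14) for 14 growth hormone genes, −0.24 for 26 amino acid and urea cycle genes (−0.66 without HFD replicate 4) and −0.23 (range −0.38 to 0.041) for 18 interferon-stimulated genes. With SAMC the medians were 0.10 for heat shock, −0.11 for cell cycle, −0.15 for clock, −0.10 for ER stress and −0.067 for bile acid genes, and −0.25 for glucose, −0.12 for growth hormone, −0.21 for amino acid and −0.14 for interferon-stimulated genes, so that cell cycle, clock, ER stress and bile acid genes lay on the other side of 0. Without HFD+SAMC replicate 3 those medians were −0.54 for interferon-stimulated and −0.24 for cell cycle genes, and −0.26 for acute phase genes and −0.74 for neutrophil markers. Of the lists described above, lipid droplet genes had a median of −0.10 with SAMC and AhR and Nrf2 regulators −0.21. Marker medians with SAMC were −0.25 for hepatocytes, 0.23 for pericentral and −0.39 for periportal markers, 0.10 for cholangiocytes, −0.24 for stellate cells, −0.011 for endothelium, 0.30 for T and NK cells and −1.20 for erythroid cells. Pericentral, cholangiocyte and stellate markers thus changed sides. No clock, amino acid or urea cycle gene separated the groups. The clock activator gene Arntl was at 17.8, 1.27 and 11.9 CPM in HFD libraries and 16.1, 18.6 and 28.3 CPM in Control libraries, and its output gene Dbp was at 26.6, 143 and 29.5 CPM in HFD libraries and 23.5, 47.9 and 8.52 CPM in Control libraries, so that HFD replicate 3 stood apart for both. In the bile acid list, Baat, which joins bile acids to taurine and glycine, was at 725, 902 and 790.2 CPM in HFD libraries and 456, 635 and 637 CPM in Control libraries (0.48 ± 0.18), Hsd3b7 stood at 0.57 ± 0.26 and the export pump gene Abcb11 at −0.30 ± 0.19. Cyp7a1, the rate-limiting enzyme of bile acid synthesis, was at 133, 221 and 98.3 CPM in HFD libraries and 58.6, 586 and 236 CPM in Control libraries, with overlap. Among insulin genes, the receptor substrate gene Irs2 was at 24.3, 20.6 and 39.5 CPM in HFD libraries and 16.5, 15.3 and 11.3 CPM in Control libraries (0.97 ± 0.33), and the receptor gene Insr was at 66, 60.2 and 87.1 CPM in HFD libraries and 108, 92.8 and 92 CPM in Control libraries (−0.46 ± 0.17). The small heat shock protein gene Hspb1 was at 39.7, 78 and 96.5 CPM in HFD libraries and 30.6, 15.2 and 7.9 CPM in Control libraries (2.00 ± 0.53).

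**Figure D5:**
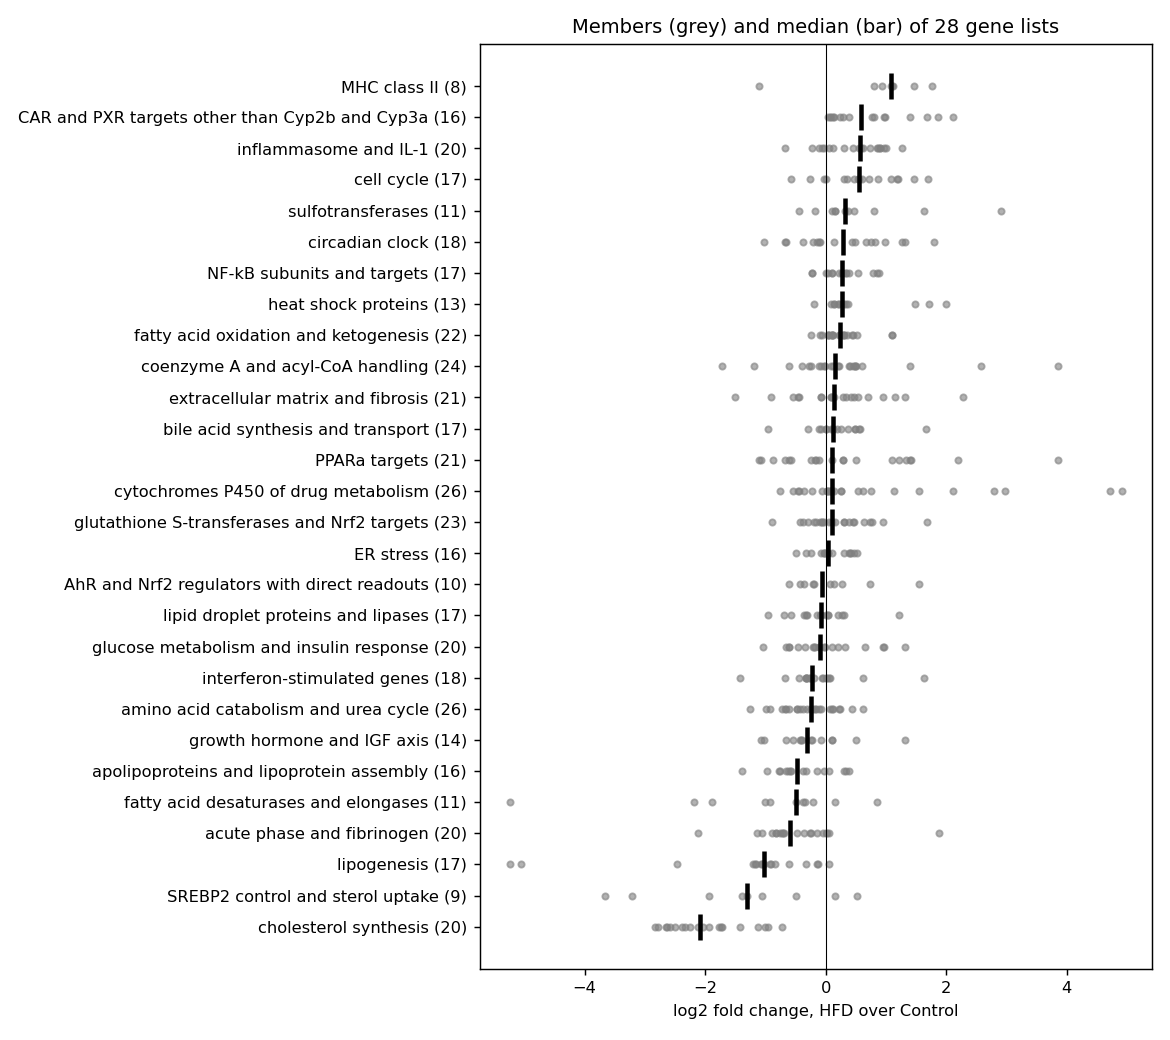
Log2 fold change, HFD over Control (x axis), of each tested member (grey points) and the median (black bar) of 28 gene lists, with the number tested in brackets. Cholesterol synthesis lies wholly below 0 with a median of −2.08, and MHC class II has the highest median at 1.08.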

How the data were processed

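RNA sequencing of rat liver was analysed in 4 groups of 3 libraries. Per the labels' protocols, ribosomal RNA was removed, libraries were made with a NEBNext Ultra kit and paired reads of 150 bp were aligned with HISAT2. The deposited read count of each gene came from HTSeq (per the labels' protocols), after trimming with Trimmomatic 0.36, per the submitters' processing notes. Build, annotation release and strand setting: not given in the sources used here. Thus reads of overlapping, antisense or near-identical genes may be mixed. The deposited RPKM values were used only for the gene length check, where 1 of 40154 genes implied another length than the listed one (relative tolerance 1e-06).

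No counts were found for 14180 genes, and filterByExpr kept 15916 (99.96% of counts). All 12 libraries entered 1 fit in R 4.3.3 with edgeR 4.0.16 (TMM, robust quasi-likelihood, 8 residual degrees of freedom, common biological coefficient of variation 0.299), checked on simulated data. SEs are the log2 fold change divided by the root of F. HFD+SAMC against Control+SAMC was added after the data were seen. Alternatives were DESeq2 1.42.0, its size factors, no filter, a replicate block, the 6 libraries alone, the diet effect averaged over SAMC and leaving out each library, with HFD+SAMC replicate 3 added after the data were seen. The members and lists were chosen with earlier results of these data known, and lists are described by counts and medians, with no set test. Named genes are the called genes, up to 6 members of a list without overlap (mean log2 CPM 1 or more, in order of p), the genes of the series title, cell type markers and the next 10 genes each way. Others were chosen after their values were seen, and a few genes are not reported here by name. Total counts per library, 45680738 to 61937544, limit precision for genes of few counts.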

Additional observations from a re-analysis of the deposited data

Results flagged for a closer look

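Diet effects that differed between libraries without SAMC (HFD against Control) and with SAMC (HFD+SAMC against Control+SAMC) were found by the interaction of diet and SAMC in edgeR's quasi-likelihood fit, with Benjamini-Hochberg adjustment over all genes tested. The difference of the log2 fold changes, without SAMC minus with SAMC, was 3.67 ± 0.29 for LOC100911991 (adjusted p = 0.000328), 2.45 ± 0.26 for LOC103691939, 2.18 ± 0.25 for Eif4g2-ps1 and 2.57 ± 0.32 for Hnrnpab. For the chaperone gene Hsp90aa1 it was 2.47 ± 0.34 (adjusted p = 0.0165) and for Faah 4.40 ± 0.73 (adjusted p = 0.0486). It was −3.25 ± 0.46 for Rn7sl1 and −2.76 ± 0.37 for LOC102548522. For Snap25 and LOC100911540 the fitted differences of 13.70 ± 1.47 and −13.47 ± 1.47 depend on the prior count, since 1 group was at 0 counts in every library. In each of these genes, picked by that difference, the groups without SAMC lay in the opposite order to those with SAMC. Without HFD+SAMC replicate 3, Hsp90aa1 and Faah no longer passed (adjusted p = 0.0542 and 0.149). The interaction and the library sets coincide, so they cannot be told apart.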

How the results depend on the processing

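The count of 23 called genes was 4 on the 6 HFD and Control libraries alone, 20 with DESeq2 size factors (RLE), 29 without the filter on low counts, 67 for the diet effect averaged over SAMC and 315 with DESeq2, and ran from 4 to 53 when 1 library of the comparison was left out. Without HFD+SAMC replicate 3, an alternative chosen after seeing the data, it was 13. The median log2 fold change of all genes moved by less than 0.1 under RLE. With the replicate number as a block 24 genes were called, 17 higher and 7 lower, and 9 of the 23 were among them. Numbers 2 and 3 occur in both groups, with correlations of deviations of 0.25 and −0.075. Over all pairs of an HFD and a Control library the correlations ran from −0.32 to 0.25. So few shared numbers cannot decide whether the libraries are paired, and the main fit took them as unpaired. Leaving out 1 library, medians ran from −2.49 to −1.02 for cholesterol synthesis, 0.091 to 0.26 for cytochromes P450 and 0.41 to 0.70 for inflammasome genes. Averaged over SAMC, medians were 0.22 for cytochromes P450, 0.32 for inflammasome genes and 0.72 for MHC class II, and the medians of glutathione S-transferase genes (−0.24) and B cell markers (0.27) changed sides. Averaging turned the direction of Eif4g2-ps1 (−0.046), Akr7a3 (−0.055), Gstm4 (−0.022) and Gclc (−0.086), Ahr turned without Control replicate 2 (0.0043, range −0.98 to 0.0043 over libraries left out), and Nfe2l2 without HFD replicate 3 (−0.027) or Control replicate 1 (−0.043, range −0.043 to 0.19). The causes were not tested. With 3 libraries a group, an exact permutation test cannot go below 0.1.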

Other observations

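A few large differences, chosen after their values were seen, had no overlap between the groups but a wide spread and no call. Tff3, a trefoil peptide of mucous epithelia, measured 1.07, 37.3 and 19.2 CPM in HFD libraries, against 0.324, 0.0979 and 0.112 CPM in Control libraries (log2 fold change 6.69 ± 1.30, adjusted p = 0.108 in the edgeR fit). Hdc, which makes histamine, was at 40.2, 157 and 7.04 CPM in HFD libraries and 1.98, 1.93 and 1.21 CPM in Control libraries (5.31 ± 1.02, adjusted p = 0.108), and with SAMC it was at 7.33 to 15.8 CPM in HFD+SAMC libraries and 0.866 to 2.06 CPM in Control+SAMC libraries. Aacs, a ketone-using enzyme of lipid synthesis, was at 1.38, 6.1 and 3.14 CPM in HFD libraries and 9.55, 140.1 and 10.03 CPM in Control libraries, where Control replicate 2 was the highest of the 6. Kcnn3, a potassium channel gene, was at 1.26, 0.246 and 0.936 CPM in HFD libraries and 6, 9.67 and 7.78 CPM in Control libraries.

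Some genes were high in a few libraries and far lower in the rest of the same group or across a library set. Fam111a was at 162, 136 and 65.4 CPM in HFD libraries and 0.0762, 0.147 and 0.0224 CPM in Control libraries, and at 0.0463 to 0.0784 CPM in HFD+SAMC libraries and 0.348 to 215 CPM in Control+SAMC libraries, so that the high values all lie in 1 library set. Akr1c2 was at 0.24, 125 and 0.262 CPM in HFD libraries and 0.4, 0.269 and 0.695 CPM in Control libraries, Ndufa10l1 at 0.129, 0.0614 and 0.0187 CPM in HFD libraries and 0.0572, 13.6 and 0.0449 CPM in Control libraries, and the carboxylesterase gene Ces2e at 17.1, 19.3 and 10.4 CPM in HFD libraries and 6.4, 408 and 13.9 CPM in Control libraries. These genes too were chosen after their values were seen.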
